A study of Mus musculus with 6 samples.

Results

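Axon guidance ligands and their receptors were followed in RNA of the habenula, a small paired nucleus at the back of the thalamus. The genes were chosen by symbol, as semaphorins of classes 3 to 7, plexins, neuropilins, ephrins, Eph receptors, netrins, Unc5 receptors, Slits and Robos. The pattern matched 66 of 16464 named genes, each with 1 probe set. Of these, 3 share only the start of their symbol with a guidance receptor (Unc50, Unc5cl and the antisense transcript Plxna4os1) and were kept apart, which left 63 guidance genes, 33 ligands and 30 receptors. Expression was measured on 6 Affymetrix arrays of dissected habenula from adult mice of 6 to 12 weeks, all of the transgenic line Chat DW167. That line carries a bacterial artificial chromosome that tags ribosomes where the choline acetyltransferase gene is active, so that RNA on tagged ribosomes can be pulled down by translating ribosome affinity purification (TRAP). Pulled-down RNA, labelled as that of cholinergic medial habenula neurons, is on the 3 IP arrays. RNA that stayed unbound in the same 3 preparations is on the 3 UB arrays. The labels call them biological replicates and do not say how many animals went into each. No array of another line or treatment was analysed here.

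Guidance molecules steer growing axons by attraction or repulsion and remain in use in adult neurons at synapses and on spines. Semaphorins signal through plexins, with neuropilins as co-receptors for most secreted semaphorins of class 3. Ephrins are bound to the membrane and signal through Eph receptor kinases, netrins through Dcc and Unc5 receptors, and Slits through Robo1 and Robo2. Axons of the medial habenula leave through the fasciculus retroflexus to the interpeduncular nucleus, and in mice without neuropilin-2 that tract is defasciculated.

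Levels are log2 values of a probe set. Signal means a linear level of at least 50, which 7533 to 7579 probe sets reached per IP array and 8618 to 8659 per UB array. All 8 listed markers of cholinergic medial habenula neurons were called higher in IP, with a summed linear level of 59561 to 84838 in IP against 7446 to 13913 in UB. The marker lists were chosen with earlier results of these data known, so these counts are no independent check of the fractions. All 7 astrocyte markers and all 5 oligodendrocyte markers with a probe set were called lower, and 5 of the astrocyte markers (Aldh1l1, Aqp4, Gfap, Slc1a2 and Slc1a3) and 2 of the oligodendrocyte markers (Mag and Mobp) were at the floor on every IP array, which here means within 0.1 of the lowest value of the fraction. All 6 thalamic and all 4 lateral habenula markers were lower as well, with sums of 1276 to 1311 in IP against 11526 to 12607 in UB for the thalamic list and 163 to 250 in IP against 12544 to 13996 in UB for the lateral habenula list. Of 5 markers of hippocampal and cortical excitatory neurons, 2 were higher (Nrgn and Neurod6) and 3 lower. In the remaining lists, many markers were too dim for the filter given below. Of those that passed, 2 of 2 oligodendrocyte precursor markers (3 listed) and 3 of 4 microglial markers (6 listed) were called lower. So were 1 of 1 vascular (7 listed), 1 of 1 meningeal (4 listed) and 1 of 2 choroid plexus and ependymal markers (5 listed). Otx2 of the last list was higher. The microglial marker C1qa was not called, with 7.58, 7.83 and 7.90 in IP against 6.00, 7.49 and 7.14 in UB. The 3′ minus 5′ log2 signal of the actin probe sets, which grows as RNA is shortened, was 3.02 to 3.37 in IP against 3.26 to 3.68 in UB. With such differences in marker levels between the fractions, fewer cells of a type and less RNA per cell cannot be told apart in any decrease below.

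The question put to IP against UB is which guidance genes have more, or less, RNA on the tagged ribosomes than in the RNA left unbound. UB is not the tissue without the cholinergic neurons, whose 8 listed markers still summed to 7446 to 13913 there. A fold between the fractions is no rate of translation. Ligands and receptors both changed in both directions. Of the ligands, Sema3e, Sema4d, Slit2 and Efnb3 were among those higher in IP, and Sema4a, Sema4f, Sema4g and Efna5 were lower. Of the receptors, Nrp2, Robo3, Plxnc1 and Epha8 were higher. Epha4, Nrp1, the plexin genes Plxna2, Plxna4 and Plxnb3, and the netrin receptor genes Unc5c and Unc5d were lower. These lower receptors and Efna5 had no signal on any IP array, and Sema4d and Epha8 had none on any UB array. A probe set was tested if at least 3 of the 6 arrays reached the linear level of 50, and was called at an adjusted p under 0.05 (limma, two-sided, Benjamini-Hochberg over 8960 tested probe sets).

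Of the 63 guidance genes, 26 were tested. Of these, 10 were called higher in IP (38.5%, against 30.9% of all tested probe sets) and 13 lower (50%, against 43.5%), and 3 were not called. Calls in either direction came to 23 of 26, against 74.5% of all tested probe sets. The 10 higher genes had every IP value above every UB value (33.4% of all tested probe sets) and the 13 lower genes every IP value below every UB value (46.6%), so that in 23 of 26 the fractions did not overlap (80.0%). These shares lie near those of the whole table. Among tested ligands, 6 of 10 were higher and 4 lower, with a median log2 fold change of 0.44. Among tested receptors, 4 of 16 were higher and 9 lower, with a median of -2.66, or -0.67 with levels under 50 set to 50. The 6 receptors with signal on all 6 arrays had a median of 1.21, and with probe sets tied in either fraction left out the receptor median was 1.95 and the ligand median -0.40. Scaled on poly-A controls the ligand median was -0.80. The median over all tested probe sets was -0.17. Only ligands and receptors that passed the filter enter these medians, so they do not describe all 63 genes.

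The filter let 12 of the 26 genes through on 1 fraction alone, 10 of them with all 3 IP arrays under 50 and 2 with all 3 UB arrays under 50. Such genes had to differ. All 3 IP arrays were under 50 for 9 of 16 tested receptors, 1 of 10 tested ligands and 15.3% of all tested probe sets, and all 3 UB arrays for Sema4d and Epha8 and 3.93% of all tested probe sets. The other 14 guidance genes reached 50 on all 6 arrays. Of these, 8 were called higher and 3 lower, against 34.0% and 34.7% of the probe sets at 50 on all 6 arrays. No receptor among them was called lower: Nrp2, Plxnc1 and Robo3 were higher, and Epha7, Ephb1 and Robo1 were not called. The ligands among them were 5 higher and 3 lower.

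**Figure D1:**
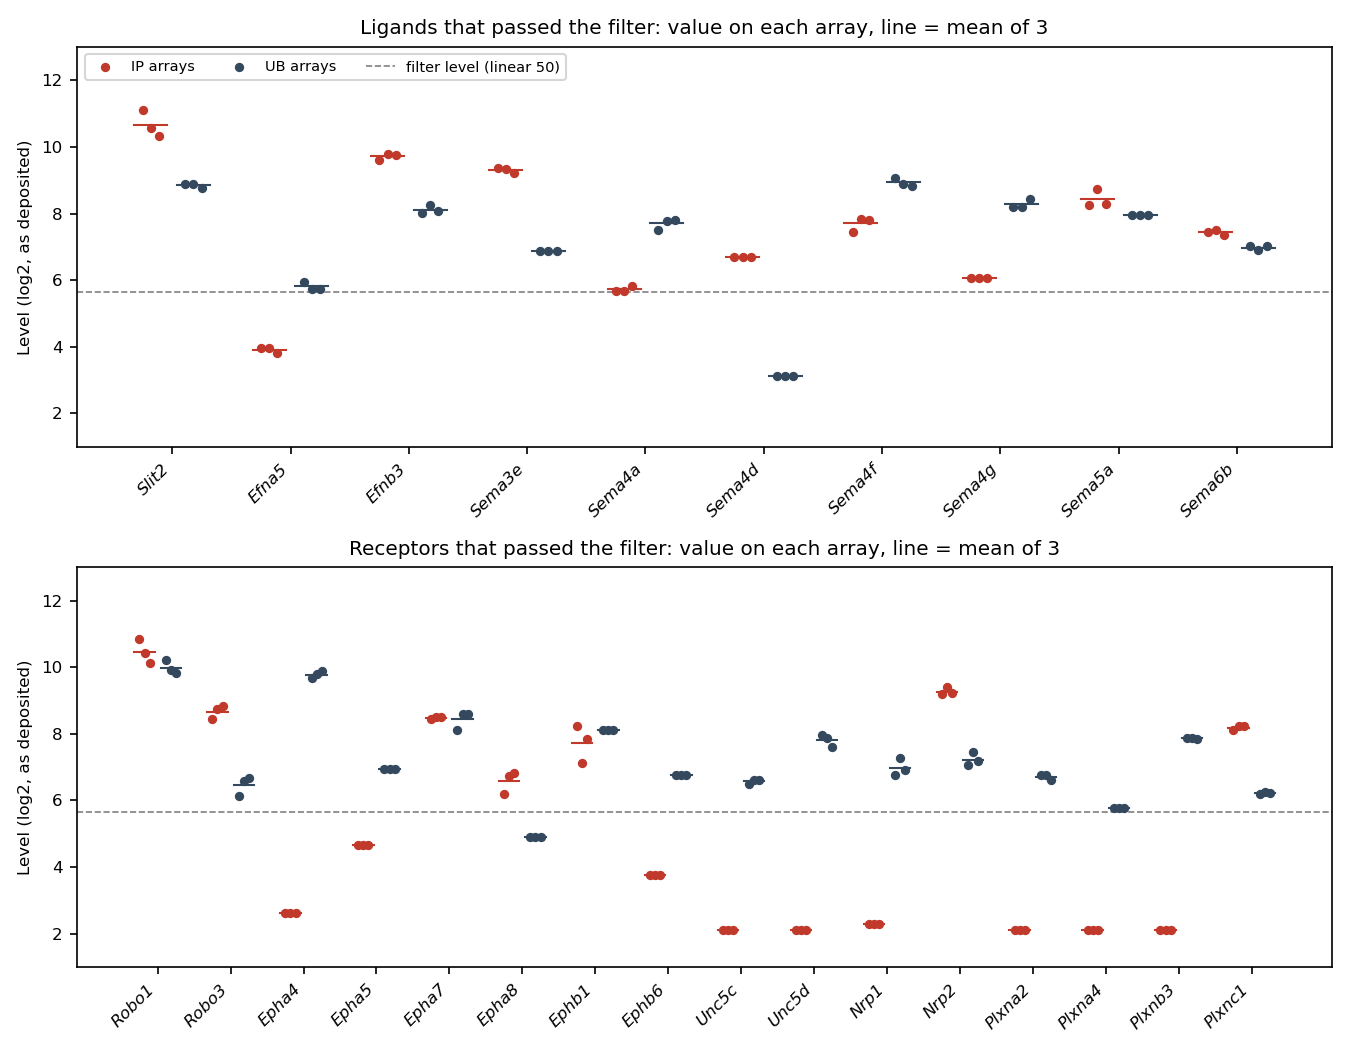
Deposited log2 level of each tested guidance gene on each of the 3 IP arrays (red, left of each pair) and 3 UB arrays (dark blue, right of each pair), with ligands above and receptors below. Lines are means of 3 arrays and the dashed line is the linear level of 50 (log2 5.644). For 9 receptors and 1 ligand all IP values lie under the dashed line, and Sema4d and Epha8 show the opposite.

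Sema3e (chromosome 5), a secreted semaphorin that binds plexin-D1 without a neuropilin, had levels of 9.36, 9.33 and 9.21 on the IP arrays against 6.86 on all 3 UB arrays. The fractions did not overlap, and it was 5.38-fold higher in IP (log2 fold change 2.43 ± 0.04 SE, adjusted p = 7.49e-07). It was the single class 3 semaphorin of 6 to pass the filter. Sema3d was under 50 on every array (4.03 to 4.05 in IP, 2.70 to 2.87 in UB), Sema3b was at 2.52 ± 0.32 in IP and 2.48 in UB (SD, n = 3 each), and Sema3c was at 2.11 in IP and 2.52 in UB. Sema3a and the neuropilin-2 ligand gene Sema3f were at the floor in IP and UB.

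Of the class 4 semaphorins, which span the membrane, Sema4d was higher in IP while Sema4a, Sema4f and Sema4g were lower. Sema4d, a ligand of plexin-B1, stood at 6.68 on all 3 IP arrays against 3.11 on all 3 UB arrays. It was higher by at least 2.03-fold (adjusted p = 4.45e-12). Such equal values on all arrays of a fraction were given to 15 of the 26 tested genes in at least 1 fraction and to 4 of them in both (Sema4d, Epha5, Ephb6 and Plxna4). For these 4 there is no spread between arrays, so that their p rests on the variance that limma borrows from other probe sets. Little is borrowed (0.651 prior degrees of freedom), which leaves them an SE of 0.0018 (Plxna4) to 0.0055 (Epha5). Their very small p thus follows from the ties and measures no spread between preparations. For the genes tied in 1 fraction only, all spread comes from the other fraction, and their p should be read with that limit. A fraction with no array at 50 was set to 50 for the fold, which is then a lower bound (at least so many fold) under the scaling used here. Another scaling can give less. Epha5 had a bound of -1.32 in log2 here and a log2 fold change of -0.75 with equal medians over all probe sets.

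Sema4g had 6.05 on all 3 IP arrays against 8.20, 8.20 and 8.43 on the UB arrays, and was 4.74-fold lower in IP (log2 fold change -2.25 ± 0.07 SE, adjusted p = 7.31e-06). Sema4a had 5.68, 5.68 and 5.82 in IP against 7.52, 7.79 and 7.82 in UB, and was 3.98-fold lower (adjusted p = 4.05e-05). Its IP values were just above the level of 50. Sema4f had 7.44, 7.85 and 7.82 in IP against 9.08, 8.90 and 8.83 in UB, and was 2.38-fold lower (log2 fold change -1.25 ± 0.14 SE, adjusted p = 9.24e-04). In none of the 3 did the fractions overlap. Sema4b was at the floor in IP and UB, and Sema4c was at 2.11 in IP and 2.87 in UB.

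The transmembrane semaphorins Sema5a and Sema6b differed little. Sema6b was at 7.44 ± 0.07 in IP and 6.98 ± 0.06 in UB (SD, n = 3 each), 1.36-fold higher (adjusted p = 9.16e-04). Sema5a, whose extracellular part carries thrombospondin repeats, had 8.27, 8.74 and 8.29 in IP against 7.97 on all 3 UB arrays, also 1.36-fold higher (limma, adjusted p = 0.0426). The Sema5a call was lost with the preparation as a block (adjusted p = 0.0690) and without IP replicate 3, UB replicate 1, UB replicate 2, UB replicate 3, preparation 1 or preparation 3 (0.0550 to 0.259). Its adjusted p lay between 5.00e-05 and 0.259 across the alternatives. Sema6a was under 50 (4.54 in IP, 5.34 in UB), as were Sema5b (2.10 and 2.42) and Sema7a (2.14 and 5.21), and Sema6c and Sema6d were at the floor in IP and UB.

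Slit2, the gene of a secreted repellent, had 11.12, 10.57 and 10.32 on the IP arrays against 8.90, 8.90 and 8.76 on the UB arrays. It was 3.48-fold higher in IP (log2 fold change 1.80 ± 0.23 SE, adjusted p = 0.00145), higher in 3 of 3 preparations by 2.21, 1.65 and 1.54. Slit1 was at the floor in IP and UB, and Slit3 was at 2.10 in IP and 2.54 ± 0.06 in UB.

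Among the ephrins, Efnb3 rose. It encodes a transmembrane ephrin that serves as a barrier to axons at the midline of the spinal cord. Efnb3 (chromosome 11) had 9.61, 9.78 and 9.76 in IP against 8.01, 8.26 and 8.08 in UB, with no overlap, and was 3-fold higher (log2 fold change 1.59 ± 0.09 SE, adjusted p = 5.37e-05). Efna5, a lipid-anchored ephrin, was under 50 on every IP array (3.90 ± 0.08 against 5.81 ± 0.12 in UB) and at least 1.13-fold lower (adjusted p = 1.86e-05). Its UB values of 5.95, 5.74 and 5.74 passed the filter narrowly, and raising values under 50 to 50 ended its call (adjusted p = 0.0564, alternatives 5.74e-12 to 0.0564). Efna2 and Efnb1 were under 50 in both fractions (4.25 in IP and 3.61 in UB for Efna2, 3.73 and 3.11 for Efnb1), as was Efnb2 (2.10 and 2.16). Efna1 and Efna4 were at the floor in IP and UB, and so were all 4 netrin genes, Ntn1, Ntn3, Ntn4 and Ntn5.

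The neuropilins went opposite ways. Nrp2, the co-receptor for semaphorin 3F, had 9.20, 9.39 and 9.21 in IP against 7.05, 7.45 and 7.17 in UB. It was 4.07-fold higher in IP (log2 fold change 2.02 ± 0.13 SE, adjusted p = 9.61e-05). Nrp1, the co-receptor for semaphorin 3A, which also binds vascular endothelial growth factor, had 2.30 on all 3 IP arrays against 6.75, 7.26 and 6.90 on the UB arrays, and was at least 2.53-fold lower (adjusted p = 5.51e-06). Nrp2 was high on every IP array and Nrp1 near the bottom of the table there, while both were above 50 on every UB array.

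Robo3, a divergent Robo that commissural axons need to cross the midline and that in mammals binds Slits poorly, had 8.45, 8.73 and 8.82 in IP against 6.13, 6.57 and 6.66 in UB. It was 4.59-fold higher (log2 fold change 2.20 ± 0.18 SE, adjusted p = 3.01e-04). The fractions lay apart by more than the spread of either. Robo1, a Slit receptor, had 10.85, 10.42 and 10.13 in IP against 10.21, 9.92 and 9.82 in UB. These values overlapped and Robo1 was not called (log2 fold change 0.47 ± 0.22 SE, adjusted p = 0.119). Within preparations Robo1 was higher in IP in 3 of 3, by 0.63, 0.49 and 0.29, and with the preparation as a block it was called higher (limma, adjusted p = 0.0241, alternatives 2.60e-04 to 0.308). Robo4 was at the floor in IP and UB.

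The sequences upstream of the neuropilin genes, which moved in opposite directions, and of Slit2 and Robo3, which were both higher, are shown for comparison. Each is the 250 bases before the annotated start, on the strand of the gene, from RefSeq on build GRCm38.p6. Nrp2 lies at chr1:62703067-62703316 (plus strand), Nrp1 at chr8:128358823-128359072 (plus strand), Slit2 at chr5:47982905-47983154 (plus strand) and Robo3 at chr9:37433176-37433425 (minus strand). Capitals mark GC boxes, searched as GGGCGG on both strands (CCGCCC on the other), with overlapping matches counted.
Nrp2: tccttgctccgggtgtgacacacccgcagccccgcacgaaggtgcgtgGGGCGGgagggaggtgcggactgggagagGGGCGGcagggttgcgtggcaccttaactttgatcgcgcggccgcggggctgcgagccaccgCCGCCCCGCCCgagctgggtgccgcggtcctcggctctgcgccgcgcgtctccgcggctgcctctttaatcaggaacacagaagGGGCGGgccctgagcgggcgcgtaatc
Nrp1: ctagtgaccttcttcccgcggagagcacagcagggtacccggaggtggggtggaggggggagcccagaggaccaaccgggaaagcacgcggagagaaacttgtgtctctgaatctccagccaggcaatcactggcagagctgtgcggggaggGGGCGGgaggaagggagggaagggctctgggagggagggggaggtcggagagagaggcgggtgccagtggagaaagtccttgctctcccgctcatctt
Slit2: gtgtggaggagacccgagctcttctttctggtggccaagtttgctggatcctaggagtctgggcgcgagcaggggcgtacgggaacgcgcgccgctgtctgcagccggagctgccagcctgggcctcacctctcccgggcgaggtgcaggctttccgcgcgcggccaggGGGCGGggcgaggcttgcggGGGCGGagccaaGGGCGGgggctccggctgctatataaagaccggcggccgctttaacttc
Robo3: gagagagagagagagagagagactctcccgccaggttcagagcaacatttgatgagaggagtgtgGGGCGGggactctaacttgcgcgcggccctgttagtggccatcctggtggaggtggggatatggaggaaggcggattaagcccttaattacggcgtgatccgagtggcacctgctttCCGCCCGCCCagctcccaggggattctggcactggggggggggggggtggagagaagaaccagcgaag
The Nrp2 window held 5 GC boxes, of which a pair overlaps, and 32 CpG dinucleotides, against 1 and 11 for Nrp1. Slit2 held 3 boxes and 25 CpG, and Robo3 3 boxes, of which a pair overlaps, and 12 CpG. A GC box was found in 10 of 12 windows of genes called higher and in 10 of 14 windows of genes called lower, with a median of 14 CpG in both sets. Of all 67 windows of guidance genes, 73.1% held one, against 32.7% of all 32851 windows of the table. The median was 15 CpG in the guidance windows and 6 CpG in all windows, and the part of CpG content in the difference was not tested. Windows were available for 54 of the 63 genes, some with several starts. The match is of letters only.

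Plxnc1, the receptor of semaphorin 7A, had 8.12, 8.22 and 8.22 in IP against 6.19, 6.26 and 6.21 in UB. It was the single plexin gene that rose, 3.87-fold (log2 fold change 1.95 ± 0.04 SE, adjusted p = 9.36e-07). Epha8, an Eph receptor that binds A-type ephrins, had 6.19, 6.74 and 6.83 in IP against 4.90 on all 3 UB arrays. The rise was at least 1.9-fold (adjusted p = 8.88e-04).

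Receptors that were lower in IP include the gene with the largest bound among the 26 tested. Epha4 (chromosome 1), which binds ephrins of both types, had 2.63 on all 3 IP arrays against 9.66, 9.79 and 9.88 on the UB arrays and was at least 17.8-fold lower (adjusted p = 3.80e-08). Epha5, a receptor of A-type ephrins, stood at 4.66 on all 3 IP arrays against 6.95 on all 3 UB arrays and was at least 2.5-fold lower (adjusted p = 2.22e-10). Ephb6, whose kinase domain is inactive, stood at 3.76 in IP against 6.76 in UB, at least 2.19-fold lower (adjusted p = 2.14e-11). Of 6 tested Eph receptor genes, 3 were called lower and 1 higher, against 43.5% and 30.9% of all tested probe sets. All 4 had passed the filter through 1 fraction alone and so had to differ.

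Of the 9 plexin genes, 3 were lower, each with signal in UB alone. Plxnb3, a receptor of semaphorin 5A, had 2.10 on all 3 IP arrays against 7.88, 7.88 and 7.85 in UB, and was at least 4.74-fold lower (adjusted p = 6.10e-11). In the brain Plxnb3 is known as a gene of oligodendrocytes, whose listed markers had a summed linear level of 136 to 156 in IP against 4957 to 7325 in UB. The part of those cells in the Plxnb3 result was not tested. Plxna2, a receptor for class 6 semaphorins, had 2.10 on all 3 IP arrays against 6.76, 6.76 and 6.61 in UB and was at least 2.11-fold lower (adjusted p = 6.38e-08). Plxna4, which pairs with neuropilin-1 and also binds class 6 semaphorins, was at 2.11 in IP and 5.76 in UB, at least 1.1-fold lower (adjusted p = 9.55e-13). Plxna1, Plxnb1, Plxnb2 and Plxnd1 were under 50 on every array. Of these, Plxnb1 was closest to the filter, at 3.35 in IP and 5.03 to 5.26 in UB, and Plxnd1 was at 2.10 in IP and 3.52 in UB. Plxna3 was at the floor in IP and UB.

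The netrin receptor genes Unc5c and Unc5d, which mediate repulsion, were at the bottom of the table in IP. Unc5d had 2.10 on all 3 IP arrays against 7.97, 7.87 and 7.61 in UB and was at least 4.56-fold lower (adjusted p = 6.41e-07). Unc5c was at 2.10 in IP and 6.57 ± 0.08 in UB, at least 1.92-fold lower (adjusted p = 6.22e-08). Neither Unc5b (2.18 in IP, 5.10 in UB) nor Unc5a (3.49 in IP, 3.65 ± 0.08 in UB) was tested. The summed levels of thalamic and lateral habenula markers given above were lower in IP alongside these receptors, and the part of those cells was not tested.

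Epha7 and Ephb1 did not differ beyond their spread. Epha7, a receptor of ephrin-A5, had 8.43, 8.51 and 8.51 in IP against 8.12, 8.60 and 8.60 in UB (log2 fold change 0.03 ± 0.15 SE, adjusted p = 0.889). The UB value of preparation 1 stood apart, and without UB replicate 1 Epha7 was called lower by -0.30 (adjusted p = 0.00313, alternatives 1.16e-04 to 0.949). Ephb1, a receptor of B-type ephrins, had 8.23, 7.13 and 7.83 in IP against 8.12 on all 3 UB arrays (log2 fold change -0.41 ± 0.30 SE, adjusted p = 0.270, alternatives 0.00455 to 0.884). Its IP values lay on both sides of the UB level. It was called lower with poly-A scaling (-1.65) and higher with equal medians over all probe sets (1.15). Epha6 was under 50 in both fractions (4.03 in IP, 2.35 in UB), as was Ephb3 (3.13 and 4.26), and Epha1, Epha2, Epha3 and Ephb4 were at the floor in IP and UB.

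**Figure D2:**
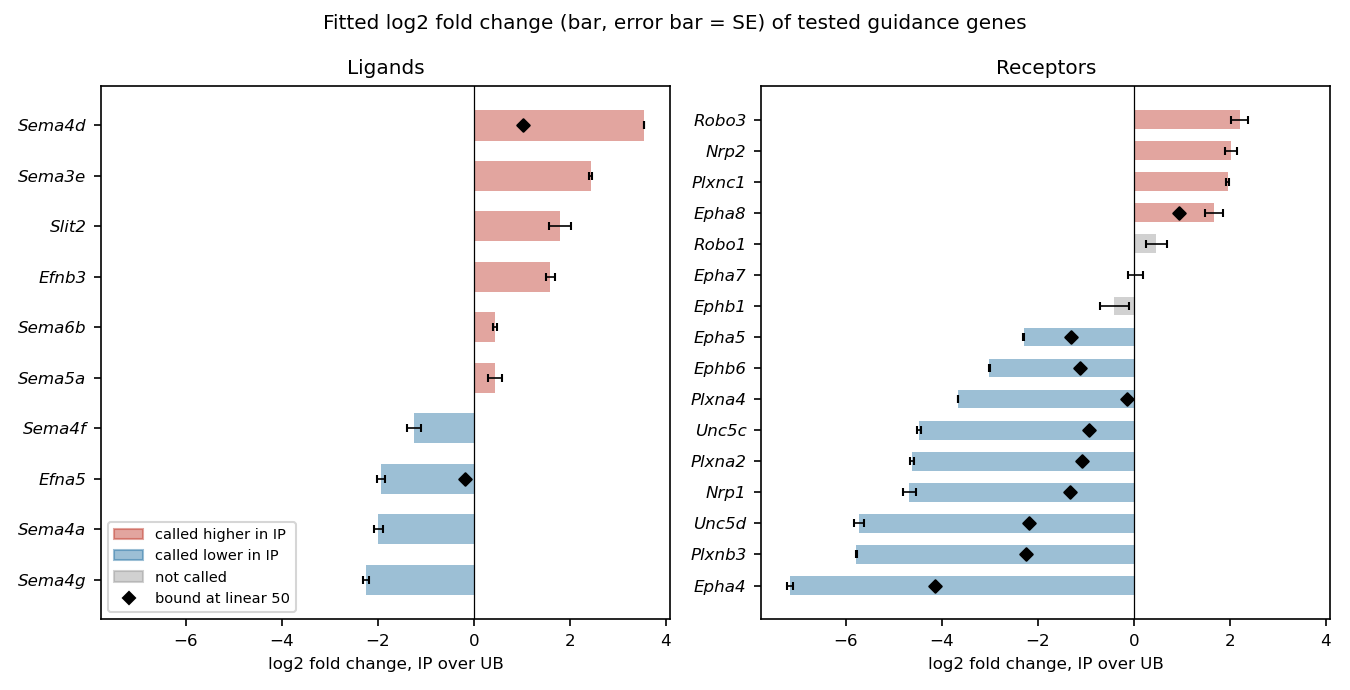
Fitted log2 fold change of IP over UB (bars, with SE) for the 10 tested ligands on the left and the 16 tested receptors on the right. Red bars were called higher in IP, blue bars lower and grey bars not called, and diamonds give the bound where a fraction was under the linear level of 50. The blue receptor bars, from Epha5 to Epha4, all carry such a bound.

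Ligands and receptors of each system were also set side by side. Of the Slit and Robo genes, Slit2 and Robo3 were higher and Robo1 had signal on all 6 arrays without a call. The systems are not complete, as Robo2, Ephb2, Efna3 and Sema3g were not among the genes matched by symbol. In the netrin system no ligand had signal in either fraction, and the tested receptors Unc5c and Unc5d had signal in UB alone, so that only a lower call was possible. For the semaphorins, 7 of 19 ligands were tested (4 higher, 3 lower), with 4 of 9 plexin genes (1 higher, 3 lower) and both neuropilins (1 higher, 1 lower), where 30.9% of all tested probe sets were higher and 43.5% lower. Sema3e was high in IP where the gene of its receptor, Plxnd1, was under 50 in both fractions, and Plxnc1 was high where its ligand gene Sema7a was under 50. Efnb3 was high where Epha4, a receptor it can activate, was near the bottom of the table. Of the 63 guidance genes, 18 were at the floor on all 6 arrays, 12 of them ligands and 6 receptors, and another 19 were dim. Every IP array had signal for 16 guidance genes and every UB array for 24.

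**Figure D3:**
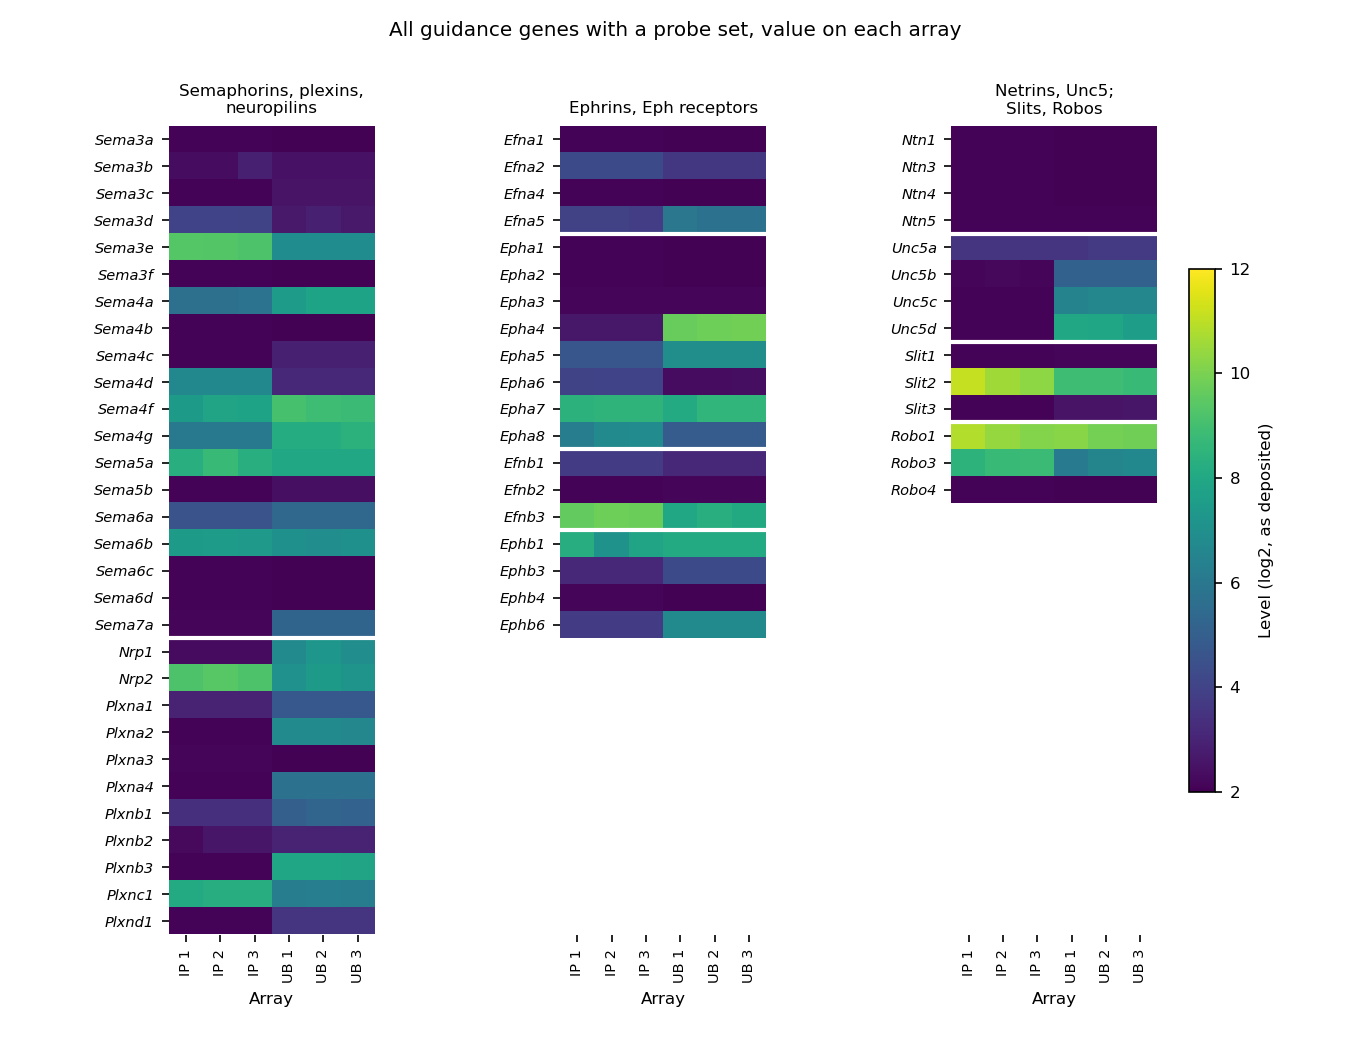
Deposited log2 level of all 63 guidance genes on the 3 IP arrays (left columns) and the 3 UB arrays (right columns), with a log2 colour scale. White lines part ligands from receptors and one system from the next. The netrin rows are dark on all arrays, while Slit2 and Robo1 are bright on all 6.

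Other genes of the pathway, outside the symbol pattern, came from a list of 73 co-receptors and intracellular effectors, of which 65 had a probe set and 46 were tested. Of these, 7 were called higher (15.2%, against 30.9% of all tested probe sets) and 31 lower (67.4%, against 43.5%). With equal medians over all probe sets the balance turned, to 26 higher and 14 lower. Ranked by fold, or by its bound where a fraction was under 50, the leading increases were of Lrrc4c, the netrin-G1 ligand gene, 3.31-fold (10.66 ± 0.07 in IP, 8.91 ± 0.24 in UB), and of Vav3, the gene of a guanine nucleotide exchange factor, 2.9-fold (11.59 ± 0.10 in IP, 10.04 on all UB arrays; adjusted p = 1.18e-05). Rgma, a repulsive ligand of neogenin, was at 6.64 ± 0.57 in IP and 3.59 in UB, higher by at least 1.97-fold (fitted log2 fold change 3.04, above the 1.73 of Lrrc4c) (adjusted p = 6.07e-04). Ablim3, an actin-binding protein gene, was 1.84-fold higher (10.79 ± 0.09 in IP, 9.89 ± 0.16 in UB), and Lrrc4c and Ablim3 had adjusted p = 2.25e-04 and 0.00107.

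Ranked the same way, which can place a bounded gene too low, the leading decreases were of Chn2, which encodes a Rac GTPase-activating chimaerin, at least 26.2-fold (3.68 on all IP arrays, 10.34 ± 0.23 in UB, adjusted p = 8.50e-07), and of Gpc1, a glypican that binds Slit, 11.9-fold (5.83 on all IP arrays, 9.39 ± 0.10 in UB, adjusted p = 3.99e-07). Tiam1, a Rac exchange factor gene, was at least 8.32-fold lower (3.65 in IP, 8.69 ± 0.24 in UB). Ngef, the gene of an exchange factor that binds Epha4, was 7.93-fold lower (5.82 ± 0.08 in IP, 8.79 ± 0.11 in UB), and Tiam1 and Ngef had adjusted p = 2.76e-06 and 2.38e-06. The IP values of Gpc1 and Ngef were just above the level of 50, so that no bound applied to them. Kalrn and Chl1, ranked lower by their bounds, had fitted log2 fold changes of -4.98 and -4.92, against -3.57 for Gpc1 and -2.99 for Ngef. The netrin receptor gene Dcc was at 5.23 on each IP array against 6.44 on each UB array, at least 1.75-fold lower (adjusted p = 3.16e-09), though higher by 0.34 with equal medians over all probe sets. Neo1, which encodes neogenin, was 3.65-fold lower (7.17 ± 0.32 in IP, 9.03 ± 0.25 in UB, adjusted p = 0.00107).

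The scaling between fractions set several calls. The values here rest on 18 biotinylated control probe sets, which put the fractions 0.016 apart. Equal medians over all probe sets, for which IP moves up by 1.54, gave 80.8% of all calls as higher in IP, against 41.5% here, and Epha7, Robo1 and Ephb1 stood at 1.58, 2.02 and 1.15, and Sema4f at 0.31. That share was 55.4% with equal medians over the tested probe sets and 53.4% with quantile normalization. The bacterial poly-A control probe sets were 1.25 higher in IP. Scaled on these, 7.37% of all calls and 25% of the calls of guidance genes were higher (43.5% here), Sema5a, Sema6b and Robo1 were lower (-0.80, -0.79 and -0.77), and Slit2 and Epha8 stayed above 0 without a call (0.56 and 0.43). Nrp2, Robo3, Plxnc1, Sema3e and Efnb3, which had signal on all 6 arrays, were called higher under every alternative in which they were tested.

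**Figure D4:**
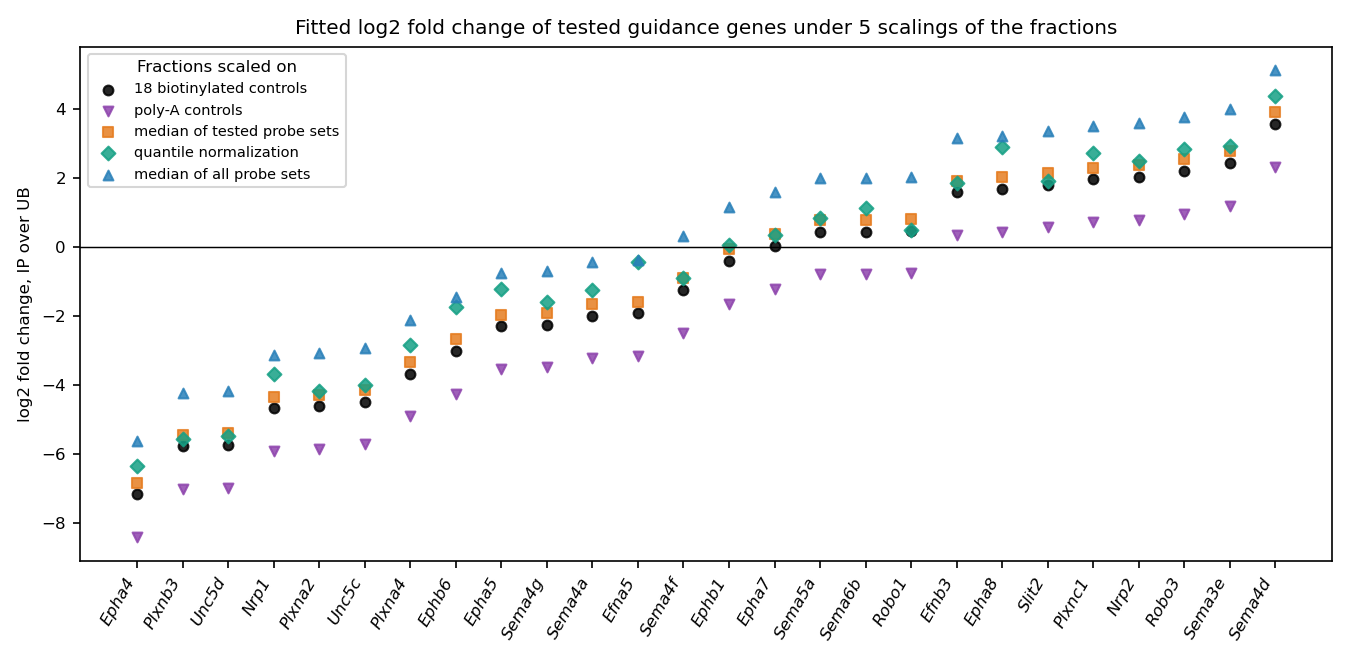
Fitted log2 fold change of IP over UB for the 26 tested guidance genes under 5 scalings of the fractions, sorted by the value with the biotinylated controls (black circles). Blue triangles (median of all probe sets) lie above the circles and purple triangles (poly-A controls) below. Sema4f, Ephb1, Epha7, Sema5a, Sema6b and Robo1 change sign among the scalings, and the others keep theirs.

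Of the 3 genes kept apart, Unc50 was at 11.36 ± 0.04 in IP and 11.32 ± 0.14 in UB (SD, n = 3 each) and was not called (adjusted p = 0.806), though it was called higher without UB replicate 3 (0.25, adjusted p = 0.0102, alternatives 1.47e-05 to 0.953). Unc5cl and Plxna4os1 were at the floor in IP and UB.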

How the data were processed

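The authors deposited 1 log2 value for each probe set and array, normalized with GCRMA within groups, per the labels and the series' design text (GCRMA version not stated). The lowest value was 2.10 on the IP arrays and 2.05 on the UB arrays, and was shared by the 3 arrays of a fraction. Normalization within a group makes its arrays alike. The SE and adjusted p of all genes, not only of tied ones, can therefore understate the spread between preparations. A difference between fractions cannot be told apart from their separate normalization except through the controls. RNA was amplified from 20 ng over 2 cycles, per the labels' protocols. The mean of 18 biotinylated controls was made equal between the fractions, as the design text recommends, and limma (version 3.58.1 in R 4.3.3) was fitted with a mean-variance trend to 8960 probe sets. Fractions of a preparation share a replicate number. Deviations from the group means correlated at 0.59, 0.48 and 0.28 within the 3 preparations. Between arrays of different preparations they correlated at -0.51 to 0.31. Deviations from a mean of 3 arrays sum to 0, which pushes these values down where the others are above 0, so the contrast is partly fixed. IP replicate 3 went with UB replicate 2 at 0.31, above the 0.28 with its own UB array. The preparation as a block is an alternative. The fit was tested on simulated data. All 16464 gene identifiers matched RefSeq. Every guidance gene with a probe set is named, and of the pathway list the 4 largest increases and decreases (by fold or bound) among called genes without overlap, with Dcc and Neo1. Members and lists were chosen with earlier results of these data known. Alternatives were other scalings and filters, levels raised to 50, ties left out, no trend, and arrays or preparations left out, with poly-A scaling added after seeing the data. Chat was not analysed here. Figures were made with matplotlib 3.10.9. The number of arrays limits the precision.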

Additional observations from a re-analysis of the deposited data

How the results depend on the processing

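The preparation as a replicate block gave 10 guidance genes higher and 13 lower, as without it, and changed no call beyond Sema5a (lost) and Robo1 (gained). Against 10 higher and 13 lower, no filter on low levels gave 31 and 28 of 63, where 8557 higher and 5998 lower were called of all 17306 probe sets. The 18 genes at the floor on all 6 arrays enter these counts and the medians without a filter. Their fractions differ by little more than the lowest values do, as for Ntn1 (2.10 in IP, 2.05 in UB). Calls without a filter are therefore no sign of expression. Probe sets tied in either fraction left out gave 6 and 3 of 11 tested, and poly-A controls, an alternative chosen after seeing the data, gave 6 higher and 18 lower. Leaving out arrays or preparations gave 9 to 10 higher and 13 to 14 lower. The ligand median of 0.44 moved to 2.00 (equal medians of all probe sets), 0.78 (of tested probe sets), 0.97 (quantiles), 0.04 (no filter), -0.40 (ties out) and -0.80 (poly-A). The receptor median of -2.66 moved in the same order to -1.10, -2.32, -1.48, -0.46, 1.95 and -3.90, to -2.64 with no offset, -1.35 with a stricter filter, -0.67 with levels raised to 50, and to between -2.83 and -2.51 with arrays left out. Of the pathway list, 7 higher became 26 (equal medians of all), 16 (no filter) and 3 (poly-A), and 31 lower became 14 (equal medians of all) and 15 (ties out). Signs turned with poly-A controls for Epha7 (-1.21), Robo1 (-0.77), Sema5a (-0.80), Sema6b (-0.79), Unc50 (-1.22) and Ablim3 (-0.36). They turned with equal medians of all for Ephb1 (1.15), Sema4f (0.31) and Dcc (0.34), and with quantiles for Ephb1 (0.05) and Unc50 (-0.04). With arrays left out Epha7 ranged from -0.30 to 0.25 and Unc50 from -0.20 to 0.25. The Neo1 call was lost with equal medians of all (-0.31, adjusted p = 0.203). An offset per array ended the calls of Sema5a and Sema6b (adjusted p = 0.203 and 0.192). Fewer probe sets are tested without ties, and other causes were not tested. Levels under 50 bound every fold that rests on them.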
